A study of Caenorhabditis elegans with 4 samples.

Results

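Yolk is the main store that a nematode mother gives to her eggs, and its proteins come from 6 vitellogenin genes, vit-1 to vit-6. These 6 genes, chosen by name from the 19912 genes of the deposited gene table, were followed in RNA deep sequencing of whole adult C. elegans. Wild-type worms of the N2 strain (var. Bristol) were kept on agar with heat-inactivated OP50 E. coli. Worms on plates with 100 nM arsenite, the trivalent and more toxic inorganic form of arsenic, were compared with worms on plates with its solvent, water, both harvested 48 h after the last larval stage (L4), with 2 libraries in each group. The comparison asks how low-dose arsenite changes transcript levels, and each library holds RNA of the whole body and of eggs within it. Whether the replicates are separate cultures is stated in none of the sources used, and the p-values cover no more than the differences among these libraries, possibly technical ones.

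Vitellogenins are large lipid-binding secreted proteins, relatives of the apolipoprotein B of vertebrates. In C. elegans the intestine of the adult hermaphrodite makes them and secretes them into the body cavity, and growing oocytes take them up through the receptor RME-2. The GATA factor ELT-2 and the homeodomain proteins UNC-62 and CEH-60 drive their transcription, while MAB-3 shuts it off in males. The product of vit-6 is cleaved into a pair of smaller yolk proteins, and those of vit-1 to vit-5 stay whole.

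On WBcel235, the build named in the submitters' processing notes, vit-6 lies apart on chromosome IV from 8261157 to 8266459, on the plus strand, and codes for 1651 amino acids. The other members are on chromosome X. The gene vit-5 runs from 3403471 to 3408603 on the plus strand, vit-2 from 5101032 to 5106169 on the plus strand and vit-1 from 7727889 to 7733168 on the plus strand. On the minus strand, vit-4 runs from 3558769 to 3563965 and vit-3 from 3567355 to 3572549, next to each other, with 3389 bases and no other annotated gene between them. The proteins of vit-3, vit-4 and vit-5 have 1603 amino acids each, that of vit-1 has 1616 and that of vit-2 has 1613. Since these genes arose as copies of each other and only uniquely mapped reads were counted, a read that matches several of them is in none of their counts, and how many reads were lost in this way was not determined. The libraries do not separate strands, and exons of vit-3 share 171 bases with those of the noncoding gene T27A10.8, of vit-4 150 bases with those of F59D8.3 and of vit-2 11 bases with those of C42D8.9, each on the opposite strand.

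The gene counts summed to 45541614 and 50472338 in arsenite replicates 1 and 2, and to 47577505 and 44263387 in control replicates 1 and 2. Because the deposited table adds up all annotated transcripts of a gene, these totals are 1.43 to 1.45 times the reads behind the RPKM values, which number 30583832 to 35218389. Markers of oocytes and of the intestine were well detected. The 12 oocyte marker genes summed to 360631 and 374925 normalized counts with arsenite and 329691 and 363985 in controls. The 10 intestine markers summed to 124875 and 135639 with arsenite and 113307 and 144104 in controls. Most of the intestine sum was asp-1, with 92239 and 102982 with arsenite and 79896 and 107846 in controls. Embryo markers (9 genes) summed to 730 to 786 normalized counts and sperm markers (6 genes) to 93.9 to 112, with 7 and 3 of these genes above the filter on low counts and none of these called.

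By uniquely mapped reads per base of transcript, vit-6 was the most abundant vitellogenin, followed by vit-2 and vit-5. The genes vit-1, vit-3 and vit-4 formed a low group. Reads that match several members are missing from these levels and from the ranks, shares and pool parts below. Levels are given as RPKM, reads scaled to transcript length and library size, of the longest transcript of each gene. For vit-6 they were 8551 and 9728 with arsenite, against 8162 and 8846 in controls. For vit-2 the RPKM values were 5182 and 5813 with arsenite, against 4853 and 5570 in controls. The ranges of vit-6 and vit-2 do not overlap over the 4 libraries, and the ratio of the 2 genes ran from 1.59 to 1.68. Next came vit-5, with an RPKM of 2269 and 2538 with arsenite, against 2180 and 2418 in controls. These 3 genes held 93.0% to 93.5% of the reads of the family.

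**Figure D1:**
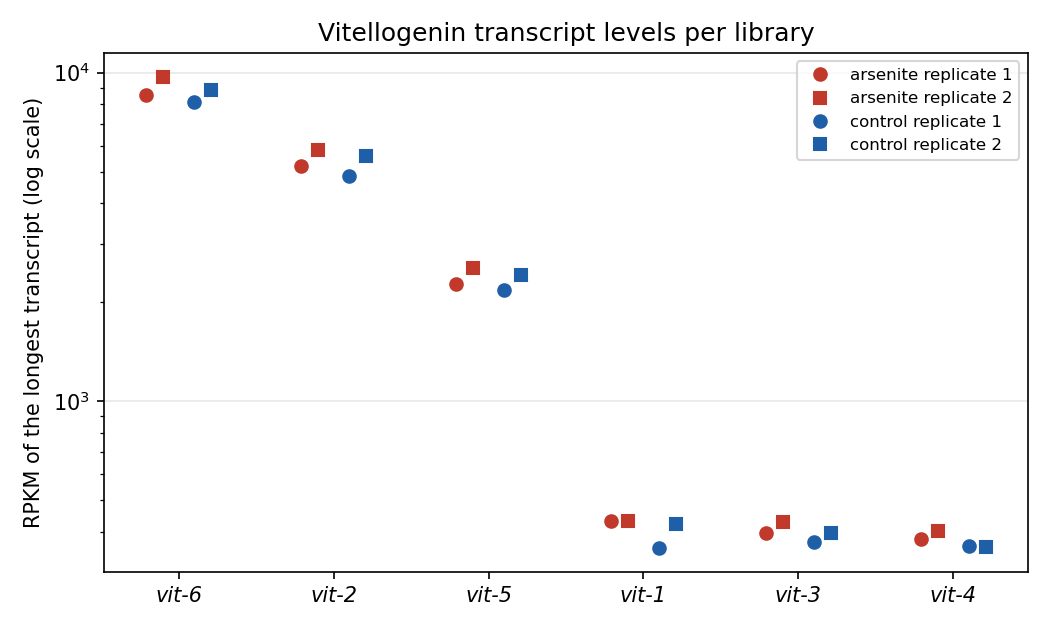
RPKM of the longest transcript of each vitellogenin gene (vertical axis, log scale) in the 2 arsenite libraries (red) and the 2 control libraries (blue), with circles for replicate 1 and squares for replicate 2. The order of vit-6, vit-2 and vit-5 was the same in every library, and vit-1, vit-3 and vit-4 share a range from 356 to 433.

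In the low group, vit-1 had an RPKM of 432.6 and 432.0 with arsenite, against 356 and 423 in controls. For vit-3 it was 398 and 429 with arsenite, against 374 and 396 in controls. For vit-4 it was 381 and 402 with arsenite, against 363 and 360 in controls. The 3 ranges over libraries overlap. Within libraries, vit-3 stayed above vit-4, and only vit-1 changed its place in the order. The neighbours vit-3 and vit-4 kept a ratio of 1.03 to 1.10 in all 4 libraries, while vit-1 was above vit-4 in 3 libraries and below it in control replicate 1, with ratios of 0.983 to 1.18. Between the ends of the family, the RPKM of vit-6 was 22.4 to 24.6 times that of vit-4. Ranked by their mean RPKM over 18624 genes with a known length, vit-6 was 2nd, vit-2 3rd and vit-5 8th, and vit-1, vit-3 and vit-4 were 199th, 203rd and 220th.

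How the deposited table counts transcripts sets how large the 2 top members look. In the annotation used by the authors, vit-6 has 3 transcripts, with derived lengths of 5053, 5050 and 722 nt, and vit-2 has 2, of 4948 and 4771 nt, while the other members have 1 each. Both long transcripts of vit-6 carry the same number of reads, 1375541 and 1731240 with arsenite and 1376430 and 1367097 in controls. The 722-nt transcript carries 1377269 and 1733711 reads with arsenite and 1378009 and 1369566 in controls, which is 1579 to 2471 reads more than the 5053-nt transcript and 7.01 times as many per base. Its RPKM of 57187 to 68182 thus rests on nearly the same number of reads as the RPKM of the long transcripts. Why a short transcript received so many was not tested, and counts alone do not show whether they are the same reads.

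**Figure D2:**
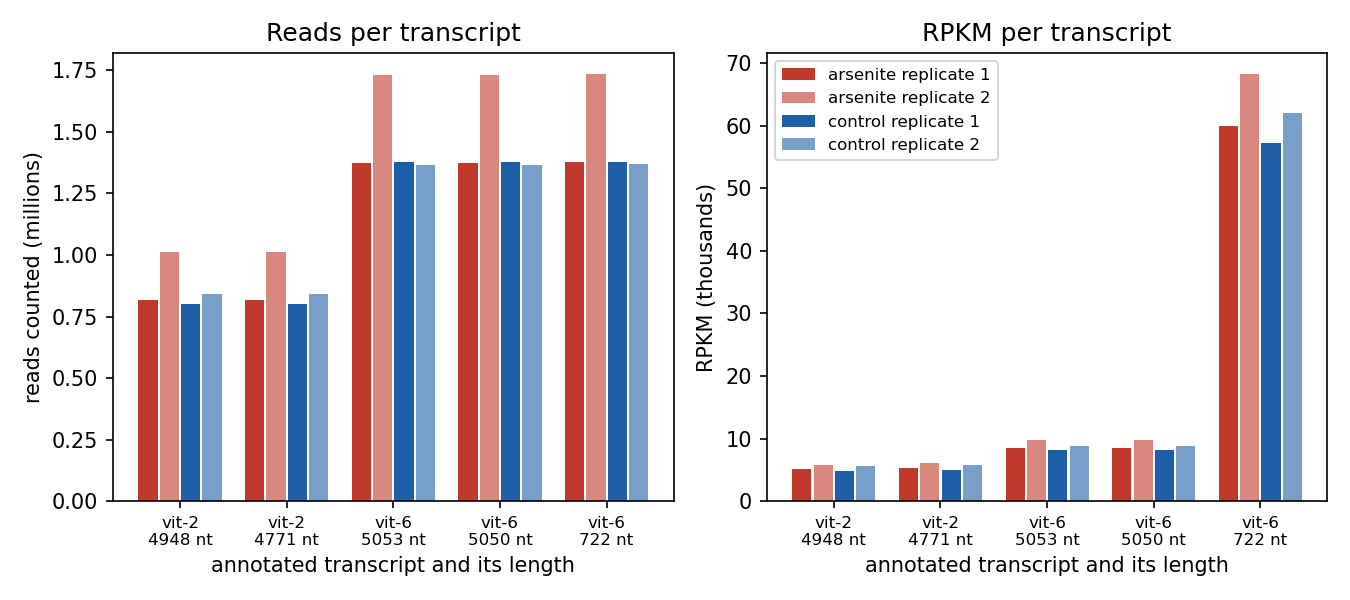
Reads counted (left) and RPKM (right) for each annotated transcript of vit-2 and vit-6, with arsenite libraries in red and control libraries in blue. The read number of the 722-nt transcript of vit-6 equals that of the long transcripts to within 2471 reads, while its RPKM reaches 57187 to 68182.

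The gene count of vit-6 is therefore about 3 times the count of its longest transcript, and that of vit-2 about 2 times. The gene RPKM, which is the summed count over the summed length, is 1.40 times the RPKM of the longest transcript for vit-6 and 1.02 times for vit-2. The current RefSeq table lists 2 transcripts for vit-6 and 1 for vit-2. In gene counts, vit-6 exceeded vit-2 by 2.43 to 2.58 times, and in the counts of their longest transcripts by 1.62 to 1.72 times. In RPKM the ratio was 2.19 to 2.31 for the genes and 1.59 to 1.68 for their longest transcripts. The test of arsenite against control is hardly touched, because the same factor applies in every library. With the longest transcript in place of the sum, the log2 fold change of vit-6 was 0.15, as it was with the gene count.

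Vitellogenin transcripts took up a large part of every library, and this part was somewhat larger in the arsenite group without clearing the spread between replicates. Summed over the 6 genes, the share of the gene counts was 13.8% and 15.6% with arsenite (mean 14.7 ± 1.25, SD, n = 2), against 13.2% and 14.3% in controls (mean 13.7 ± 0.793, SD, n = 2). Arsenite replicate 1 lies below control replicate 2, so that the groups overlap. An exact two-sided permutation test over the libraries gave p = 0.667, and with 2 against 2 libraries it cannot go below 0.333. Counting each read once, by the longest transcript over the reads behind the RPKM values, lowers the summed share to 8.59% and 9.65% with arsenite, against 8.13% and 8.99% in controls. The 95% Wilson intervals of these shares reach at most 0.0101 percentage points to each side. They treat reads as independent molecules, which reads are not, and leave out the differences between libraries.

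Of the single members, vit-6 held 4.32% and 4.92% of the reads with arsenite, against 4.12% and 4.47% in controls, and vit-2 held 2.56% and 2.88% with arsenite, against 2.40% and 2.76% in controls. The share of vit-5 was 1.11% and 1.24% with arsenite, against 1.06% and 1.18% in controls. Each of these 3 shares was lowest in control replicate 1 and highest in arsenite replicate 2. The remaining members, vit-1, vit-3 and vit-4, held 0.176% to 0.219% each in all 4 libraries.

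None of the 6 vitellogenin genes passed the test of arsenite against control, although the fitted change was positive for each of them. All 6 passed the filter on low counts, and the quasi-likelihood test of edgeR called 0 of them at an adjusted p under 0.05 over the 13776 genes tested, where it called 0% of all genes higher and 0% lower. Below 0.05 before adjustment it passed vit-4 only, 1 of 6, beside 2.16% of all genes that were higher at that level. The edgeR exact test also called 0 of 6 at an adjusted p under 0.05, where it called 0.392% of all genes higher and 0.617% lower, and 2 of 6, vit-1 and vit-4, were below an unadjusted 0.05, beside 2.3% of all genes that were higher and 5.28% that were lower at that level. The likelihood ratio test of edgeR (0.421% of all genes higher, 0.719% lower) and DESeq2 (0.0581% higher, 0.16% lower) called 0 of 6 as well. With the replicate number as a block the quasi-likelihood test called 0 of 6, beside 0.218% of all genes higher and 0.363% lower.

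The fitted change was small, with log2 fold changes from 0.11 for vit-5 to 0.19 for vit-1 and a median of 0.15, beside a median of 0.0055 over all genes tested. A positive value was found in 6 of 6 members and in 51.8% of all genes. As folds, these are 1.08 to 1.14, and the 95% intervals of the 6 genes reach from 0.903 at the lowest to 1.35 at the highest. The members share tissue, sequence and libraries and are not independent of each other. In the 57 genes with a mean normalized count at or above that of the lowest member, members included, the median log2 fold change was 0.033. Between replicates these genes differed by a median absolute log2 ratio of 0.058 with arsenite and 0.14 in controls.

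The most abundant member, vit-6, had normalized counts, which are counts scaled for library size and composition, of 4260018 and 4964360 with arsenite, against 3939139 and 4386537 in controls. Control replicate 2 lies above arsenite replicate 1, and the groups overlap. On the log2 scale the difference was 0.15 with a standard error of 0.13 and a 95% interval from -0.13 to 0.43, and the quasi-likelihood test of edgeR gave an adjusted p of 0.908. For vit-2, the normalized counts were 1684560 and 1935432 with arsenite, against 1528320 and 1801778 in controls, in the same order of libraries. The log2 difference was 0.12 with a standard error of 0.12 and a 95% interval from -0.15 to 0.39 (edgeR, adjusted p = 0.93). The normalized counts of vit-5 were 363126 and 415977 with arsenite, against 338085 and 385085 in controls, which is a log2 difference of 0.11 with a standard error of 0.099 and a 95% interval from -0.11 to 0.33 (edgeR, adjusted p = 0.921). In all 3 of these genes the groups overlap, with arsenite replicate 1 between the controls.

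In the 3 genes of low level, both arsenite libraries lay above both controls, as they did in 17.1% of all genes tested, while both lay below both controls in 19.1%. For vit-4 the normalized counts were 61068 and 66015 with arsenite, against 56253 and 57376 in controls. The log2 difference was 0.16 with a standard error of 0.069 and a 95% interval from 0.0085 to 0.31, which is not adjusted for the number of genes (edgeR quasi-likelihood test, adjusted p = 0.655). The counts of vit-3 were 63799 and 70391 with arsenite, against 57986 and 63218 in controls, where arsenite replicate 1 and control replicate 2 nearly meet. The log2 difference was 0.15 with a standard error of 0.077 (edgeR, adjusted p = 0.759). For vit-1 the counts were 72069 and 73709 with arsenite, against 57509 and 70129 in controls, so that control replicate 1 alone stands apart. The log2 difference of vit-1 was 0.19 with a standard error of 0.091 and a 95% interval from -0.012 to 0.40 (edgeR, adjusted p = 0.714). Without control replicate 2 it was 0.34, where a single control library is left and no spread between controls enters the fit. There the exact test of edgeR, an alternative chosen after seeing the data, called vit-1 higher, and the quasi-likelihood test did not. In that setting the exact test called 112 of 14079 genes higher (0.796%) and 146 lower (1.04%). Without control replicate 1 the value of vit-1 was 0.053.

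**Figure D3:**
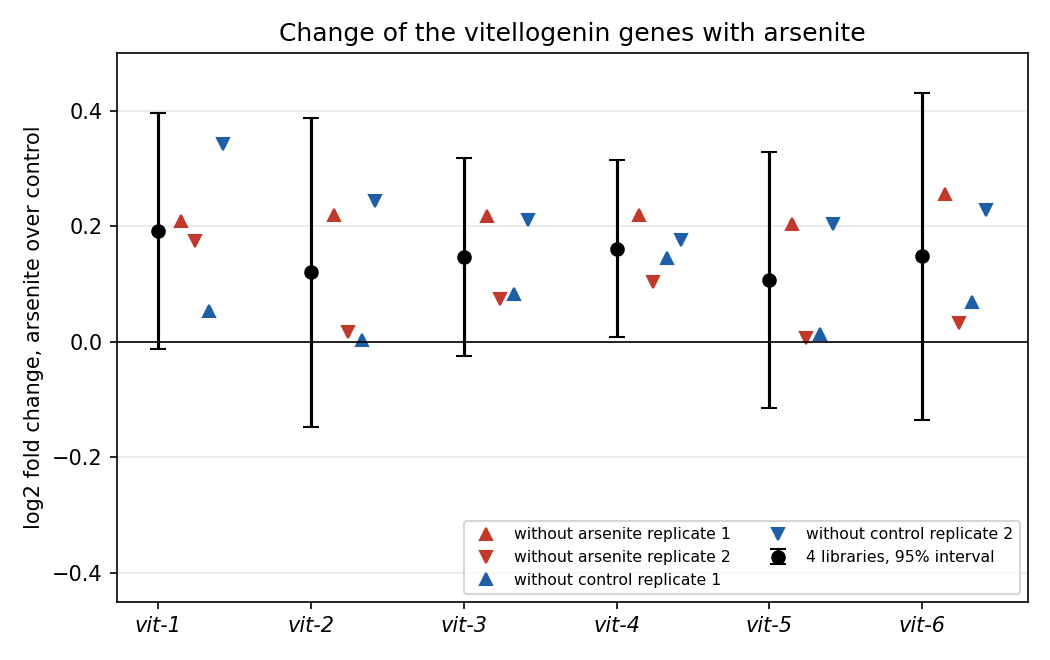
Log2 fold change of each vitellogenin gene, arsenite over control (vertical axis), with all 4 libraries as black points with 95% intervals from edgeR's quasi-likelihood fit, and without 1 library as triangles (red for an arsenite library left out, blue for a control library). The points lie between 0.11 and 0.19, and the values without 1 library between 0.0040 and 0.34.

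The libraries of 1 group differed by about as much as the groups. In each of the 6 genes replicate 2 was above replicate 1, with arsenite by 0.032 to 0.22 and in controls by 0.029 to 0.29 on the log2 scale of normalized counts. Within replicate 1 the arsenite library was above the control library by 0.10 to 0.33, and within replicate 2 by 0.072 to 0.20. By normalized counts, control replicate 1 was the lowest and arsenite replicate 2 the highest library for all 6 members. This depends on the scaling. By RPKM of the longest transcript, vit-4 had 363 in control replicate 1 and 360 in control replicate 2. By the same measure vit-1 had 432.6 in arsenite replicate 1 and 432.0 in arsenite replicate 2. When arsenite replicate 2 was left out, the fitted log2 changes were 0.0061 for vit-5, 0.017 for vit-2, 0.033 for vit-6, 0.074 for vit-3, 0.10 for vit-4 and 0.18 for vit-1. Without control replicate 1 they were 0.0040 for vit-2, 0.014 for vit-5, 0.053 for vit-1, 0.070 for vit-6, 0.083 for vit-3 and 0.14 for vit-4. Leaving out arsenite replicate 1 gave 0.20 to 0.26, and leaving out control replicate 2 gave 0.18 to 0.34.

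**Figure D4:**
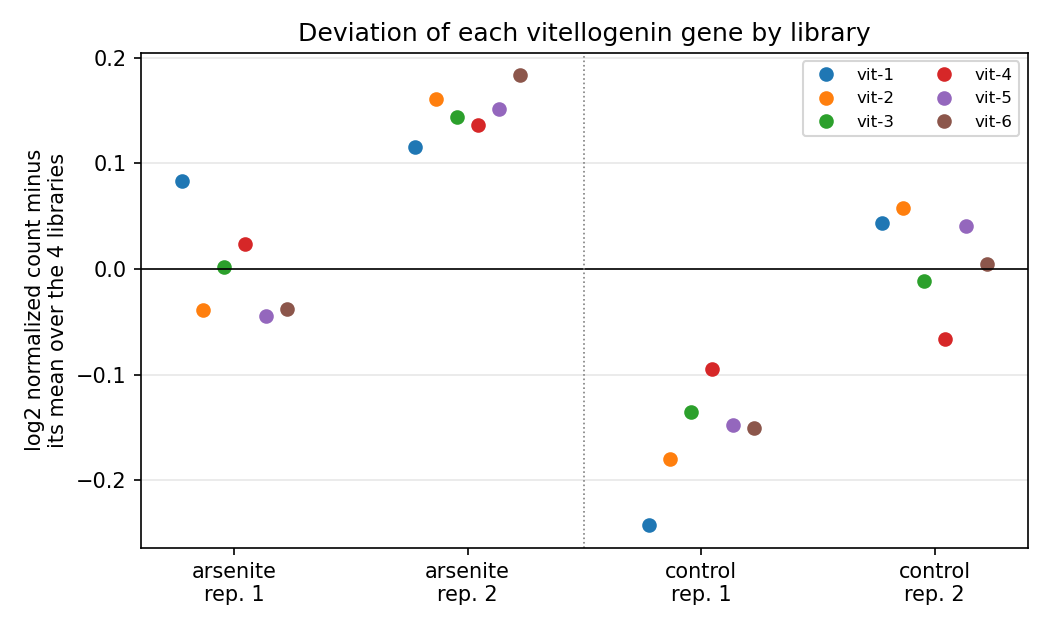
Log2 normalized count of each vitellogenin gene minus its mean over the 4 libraries (vertical axis), by library, with arsenite libraries left of the dotted line and control libraries right of it. All 6 genes lie below 0 in control replicate 1 and above 0 in arsenite replicate 2.

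The make-up of the vitellogenin pool was nearly the same in all libraries. By reads of the longest transcript, vit-6 made up 50.3% and 50.9% of the pool with arsenite, against 50.7% and 49.7% in controls. For vit-2 this was 29.85% and 29.80% with arsenite, against 29.54% and 30.66% in controls, and both genes overlap between the groups. The part of vit-5 was 12.9% and 12.8% with arsenite, against 13.1% and 13.1% in controls, lower in both arsenite libraries. The difference was -0.251 percentage points, and the exact two-sided permutation test gave p = 0.333, the smallest it can give. It is 1 of 6 such parts compared, and vit-1, vit-3 and vit-4 made up 1.95% to 2.55% each, with overlapping groups.

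Genes whose level followed the libraries most like the mean of the members were sought among 5594 other genes with a mean normalized count of at least 1000, by the distance between centred log2 values over the 4 libraries. The nearest were Y48G8AL.13 (distance 0.017), K12H4.5 (0.018), the ribosomal protein gene rps-17 (0.022), the retromer subunit gene vps-29 (0.039) and the dehydrogenase gene dhs-25 (0.040). For rps-17 the normalized counts were 12981 and 14291 with arsenite, against 11573 and 13248 in controls. None of these 5 genes passed the quasi-likelihood test of edgeR, with adjusted p from 0.80 to 0.878. The genes were chosen by likeness over these same libraries, so this outcome adds no information. Of the members themselves, vit-3 was at a distance of 0.033 from the mean, with 3 other genes nearer, and vit-1 at 0.13, with 464 other genes nearer. Likeness over 4 libraries says little, since many genes share such a pattern.

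Genes that control, process or take up yolk showed no call with all 4 libraries either. Among 11 genes of the control of vitellogenin transcription the quasi-likelihood test of edgeR passed 0, also at an unadjusted p under 0.05. EdgeR's exact test, its likelihood ratio test and DESeq2 called 0. Of all genes, the adjusted quasi-likelihood test called 0%, and the exact test called 0.392% higher and 0.617% lower. So 0 calls in a short list say little about its genes. At the unadjusted quasi-likelihood level, 2.16% of all genes were higher and 5.05% lower. The fitted change was positive in 4 of 11, beside 51.8% of all genes, with a median of -0.029. The gut GATA factor gene elt-2 had normalized counts of 451 and 502 with arsenite, against 503 and 567 in controls, which is -0.16 on the log2 scale with a standard error of 0.10 (edgeR, adjusted p = 0.829). The genes of the activators unc-62 and ceh-60 had log2 fold changes of -0.056 (standard error 0.076) and 0.021 (standard error 0.17), and ceh-60 was low, with 102 and 109 normalized counts with arsenite and 113 and 95.1 in controls. The repressor gene mab-3 was barely detected, with 15.5 and 15.3 normalized counts with arsenite, against 16.2 and 21.4 in controls. These 3 genes were picked for their roles. Other regulators ran from a log2 fold change of -0.11 for the kinase gene sgk-1, which acts with rict-1 (-0.0061), to 0.072 for the insulin receptor gene daf-2 and 0.12 for the sex determination factor gene tra-1.

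Of 15 genes of yolk uptake and endocytosis, 0 passed the quasi-likelihood test, adjusted or at an unadjusted p under 0.05, and 0 were called by the edgeR exact test, the likelihood ratio test or DESeq2, with 8 positive values and a median log2 fold change of 0.0097. The yolk receptor gene rme-2, picked for its role, had normalized counts of 39921 and 41223 with arsenite, against 36999 and 40654 in controls. The log2 difference of rme-2 was 0.063 with a standard error of 0.069 and a 95% interval from -0.091 to 0.22 (edgeR, adjusted p = 0.937). Control replicate 1 is the lowest and arsenite replicate 2 the highest library here too. The smallest p of the list belonged to rab-35, a small GTPase of receptor recycling, at 0.13 on the log2 scale (standard error 0.075), and to apa-2, dyn-1 and dpy-23 of clathrin-coated vesicles, with -0.097, -0.097 and -0.086, none past the threshold. The lipid transfer protein gene dsc-4, which serves lipoprotein assembly, stood at a log2 change of -0.062 (standard error 0.067), and cpl-1, a cathepsin L that processes yolk, had 0.080 (standard error 0.080).

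Among 17 genes of other lipid carriers, fatty acid and retinol binding proteins (far) and lipid binding proteins (lbp), 0 passed any of these tests with all 4 libraries. The exact test called 0.392% of all genes higher and 0.617% lower. An unadjusted quasi-likelihood p under 0.05 was reached by 0 of 17, beside 2.16% of all genes higher and 5.05% lower. The fitted change was positive in 7 of 17, beside 51.8% of all genes, with a median log2 fold change of -0.022. The log2 change was 0.14 for lbp-9 (standard error 0.099), 0.16 for lbp-5 (standard error 0.14), 0.10 for lbp-4 (standard error 0.088) and -0.087 for far-8 (standard error 0.071). Without control replicate 2, the exact test of edgeR called lbp-9 (0.30) and cpl-1 (0.20) higher, as it did vit-1 and 0.796% of all genes. A single control library is left in that fit.

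Markers of the tissue that makes yolk and of the cells that take it up did not share 1 direction. The 10 intestine markers had a median log2 fold change of -0.10, with 2 of 10 positive, 0 past the adjusted threshold of any test with all 4 libraries, while 2 lay lower with an unadjusted quasi-likelihood p below 0.05, as did 5.05% of all genes. These were ifb-2, an intermediate filament protein of the gut lining, and ifo-1, which organizes these filaments. The value of ifb-2 was -0.20 with a standard error of 0.061 (edgeR, adjusted p = 0.422). That of ifo-1 was -0.16 with a standard error of 0.069 (edgeR, adjusted p = 0.664). Without control replicate 1, which leaves a single control library, ifb-2 had -0.24 and the quasi-likelihood test called it lower. In that fit 0.863% of all genes were called higher and 0.514% lower. The 12 oocyte markers had a median of 0.074, with 12 of 12 positive and 0 past any test with all 4 libraries. Among them were cbd-1 of the eggshell at 0.11 (standard error 0.078) and the oocyte regulator gene lin-41 at 0.10 (standard error 0.073). The chitin synthase gene chs-1 stood at 0.098 (standard error 0.062). Of all genes, 51.8% were positive, and the exact test called 0.392% higher and 0.617% lower. Markers of 1 list were measured in the same libraries and are not independent of each other. In whole worms, fewer cells of a type and less RNA per cell cannot be told apart, and the part of these markers in the values of the vitellogenins was not tested.

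**Figure D5:**
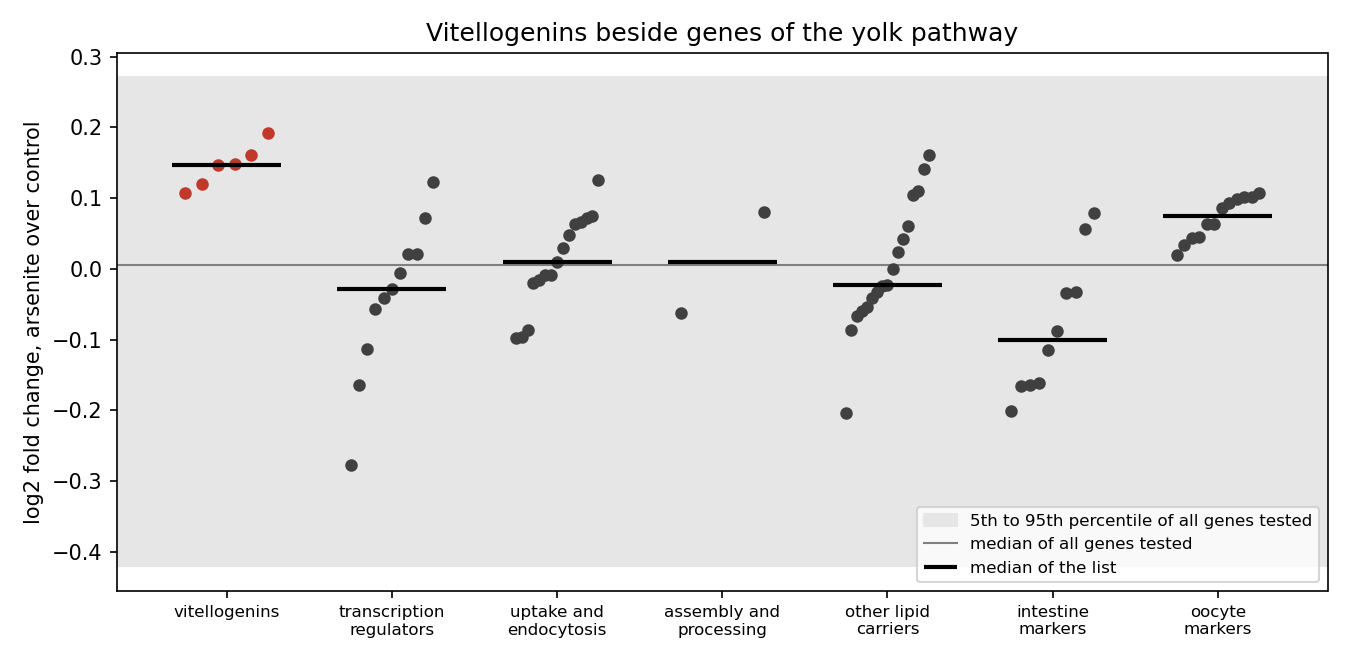
Log2 fold change, arsenite over control (vertical axis), of each tested gene of 7 lists, with a bar at the median of each list, a grey line at the median of all genes tested and a grey band from their 5th to their 95th percentile. The 6 vitellogenins lie between 0.11 and 0.19, inside the band from -0.42 to 0.27, as do the genes of the other lists. The band covers genes of all levels above the filter on low counts, not only abundant ones.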

How the data were processed

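Total RNA of whole worms was made into libraries by the authors with Illumina's mRNA-Seq kit, which does not mark the strand. They mapped single reads with Bowtie to the genome and exon junctions and assigned uniquely mapped reads with RefSeq. The submitters' notes also name CASAVA and WBcel235, without their versions. The authors deposited whole-number counts, not normalized, and RPKM values, for transcripts and genes. Every gene count, 19912 of 19912, equals the sum over its transcripts. Reads and transcript lengths were derived from counts and RPKM, with 22554 of 22554 lengths whole within 0.01.

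The main test was that of edgeR 4.0.16 in R 4.3.3 on the gene counts, with filterByExpr (minimum count 10, total 15), TMM, glmQLFit and glmQLFTest, a model of condition alone, and p-values adjusted by Benjamini-Hochberg over all genes, at 0.05. Alternatives were other tests (DESeq2 1.42.0), scalings and filters, a loess length correction (span 0.5), the transcript table, the replicate block and each library left out. The scripts were tested on simulated data. Members and lists were chosen with earlier results of these data known. Named genes are the members, the 4 genes of smallest p per list, the 5 of most like profile and some picked for their role. Coordinates come from RefSeq, exons and amino acid numbers from Ensembl. Of the list genes 6 were matched through RefSeq under older names, and 1, peel-1, was not matched. The depth, 30583832 to 35218389 reads per library, leaves little counting error for the members, so that 2 libraries per group limit the precision.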

Additional observations from a re-analysis of the deposited data

How the results depend on the processing

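The log2 fold change of each of the 6 vitellogenin genes was positive in 126 of 126 values under 21 alternatives, 16 set beforehand and 5 chosen after seeing the data (the longest transcript of each gene, and the exact test without each library), and 1 of these 126 values passed an adjusted p of 0.05, that of vit-1. The number of members called was 0 in both directions under all 16 set beforehand, and ran from 0 to 1 for higher by the exact test without 1 library, which over all genes called 4 to 129 higher and 7 to 146 lower. The 126 values come from the same 4 libraries and are not independent of each other. Scaling by library size alone gave the lowest values with all 4 libraries, 0.069 for vit-5 to 0.16 for vit-1. Over all genes, where the quasi-likelihood test called 0 higher and 0 lower, the exact test called 54 and 85, the likelihood ratio test 58 and 99, DESeq2 8 and 22, and the quasi-likelihood test without a filter on low counts 35 and 44. With 1 library left out the quasi-likelihood test called 1 to 121 higher and 1 to 72 lower, most without control replicate 1 and fewest without control replicate 2, where the single library left in a group is taken to vary as the other group does. The cause was not tested. Yolk pathway genes gave 0 calls under the alternatives set beforehand, and the exact test without control replicate 2 called lbp-9 (0.30) and cpl-1 (0.20), among 112 genes higher and 146 lower.

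With the replicate number as a block the quasi-likelihood test called 30 genes higher and 50 lower, and 0 of 6 vitellogenins, with adjusted p from 0.316 to 0.751. In the labels, same-numbered libraries also carry consecutive sample numbers, and whether they were handled together is not stated. Deviations of same-numbered libraries correlated at 0.052 over 13776 genes. The summed share of the gene counts differed by 0.989 percentage points, 0.106 to 1.87 with 1 library left out. By the longest transcript over the reads behind the RPKM values the difference was 0.564 points. The part of vit-6 in the pool, by gene counts and not by the longest transcript, differed by 0.352 points, -0.174 to 0.878 with 1 library left out.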
